A study of Mus musculus with 6 samples.

Results

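The Schlafen genes of the mouse were described in immature dendritic cells (imDCs), which take up antigen before they mature, with and without fluid shear stress (FSS). The family members Slfn1, Slfn2, Slfn3, Slfn4, Slfn5, Slfn8 and Slfn9 were selected by gene symbol, 7 of the 18071 genes with values, and all 7 were measured. They were proposed with their FSS and static values in view, so the difference between these groups is given for them as a description, without a test. The cells came from femur and tibia marrow of male C57BL/6 mice of 7 weeks, cultured over 7 days in medium holding IL-4 at 10 ng/ml and GM-CSF at 20 ng/ml, the non-adherent cells then being purified by CD11c. For the 3 FSS libraries cells stood for 3 h under 10 dyn/cm2 in a cone-plate device, and for the 3 static libraries without flow. No allele or transgene is named, and whether a library pooled several mice is not stated.

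Schlafen proteins share an amino-terminal core domain, and the mouse family is usually divided by length. Slfn1 and Slfn2 encode short forms (337 and 378 residues in the GENCODE M21 annotation), Slfn3 and Slfn4 intermediate forms (640 and 602), and Slfn5, Slfn8 and Slfn9 long forms (884, 910 and 910) that carry a helicase-like carboxy-terminal part. Many of the genes are induced by type I interferon. Slfn2 is known for keeping T cells and monocytes quiescent, and Schlafen proteins of several lengths bind or cut transfer RNA. In the RefSeq annotation of GRCm38.p6 the genes lie side by side in the order Slfn5, Slfn9, Slfn8, Slfn2, Slfn1, Slfn4, Slfn3 on chromosome 11, followed by Slfn14.

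The promoters of the 7 genes fell into 2 kinds by the short sequences they hold, and the stretches below are shown because the kinds cross the expression pattern described later. All 7 were found in the RefSeq promoter table (GRCm38.p6, 250 bases before to 50 after the start site, first start site listed). Both strands were searched. The letters CCAGGAAGT, an extended form of the GGAAGT core bound by ETS factors such as PU.1, were taken up after these promoters had been read. They occurred in the promoters of Slfn1, Slfn2, Slfn3 and Slfn4, and in 0.888% of all 27025 promoters of this length. GGAAGT alone occurred in the same 4 and in 24.1% of all. GAAANNGAA, a core of the interferon-stimulated response element, occurred in those of Slfn5, Slfn8 and Slfn9, and in 8.57% of all. TTCNNNGAA, the palindrome bound by STAT dimers, and GAANNTTC, a pair of heat shock element units, occurred in none of the 7, and in 8.47% and 7.95% of all. A match describes letters in this window and not binding.

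For the first kind, the 60 bases from 90 to 31 bases upstream of the start site are printed 5′ to 3′ on the strand of the gene, with the reverse complement of CCAGGAAGT in capitals. They lie on the plus strand at chr11:83116730-83116789 (Slfn1), chr11:83065022-83065081 (Slfn2), chr11:83191240-83191299 (Slfn3) and chr11:83175096-83175155 (Slfn4).
Slfn1: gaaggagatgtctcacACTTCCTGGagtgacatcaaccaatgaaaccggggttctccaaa
Slfn2: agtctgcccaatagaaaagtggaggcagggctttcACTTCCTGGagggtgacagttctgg
Slfn3: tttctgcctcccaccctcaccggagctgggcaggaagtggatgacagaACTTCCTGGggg
Slfn4: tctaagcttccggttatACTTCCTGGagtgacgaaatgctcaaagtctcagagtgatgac

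For the second kind, the matches to GAAANNGAA or its reverse complement are in capitals. Slfn8 (minus strand, chr11:83020841-83020900) and Slfn9 (minus strand, chr11:82991861-82991920) are shown over the same distance from the start site. Slfn5 (plus strand, chr11:82951942-82952001) is shown over 60 bases that begin 160 upstream, where it held a match on each strand.
Slfn5: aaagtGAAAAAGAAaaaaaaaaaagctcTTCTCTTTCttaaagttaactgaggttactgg
Slfn8: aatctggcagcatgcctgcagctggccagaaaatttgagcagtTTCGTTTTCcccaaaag
Slfn9: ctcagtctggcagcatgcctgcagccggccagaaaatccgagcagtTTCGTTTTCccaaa
The promoters of Slfn8 and Slfn9 were the closest pair, identical at 83.4% of aligned bases, against 45.1% to 58.1% for the other pairs.

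Levels are in FPKM, fragments of a gene scaled to the library's mapped fragments and to transcript length, a unit inferred from the deposited values. Between 10390 and 10959 genes reached 1 FPKM in a library, and since no read counts are included the depth is unknown. Nothing in the labels says that replicates were separate cultures or animals, so p-values measure the spread among these 6 libraries only, and that spread may be technical. The replicate numbers 1 to 3 recur in both groups. Over the 10899 genes tested, deviations from the group means correlated at 0.66 to 0.87 between libraries of one number. Number 1 against number 2 gave 0.22 and 0.28, while number 3 against the others gave -0.78 to -0.54. Deviations cancel within a group, which by itself pushes values between different numbers downward. By this measure both libraries numbered 3 stood apart, and values are also given pair by pair and without them. Of 10 dendritic cell markers 9 passed the filter on low values, among them Itgax, which encodes CD11c (397 to 599 FPKM), and Cd74 (4178 to 5319), while Flt3 stayed under 1 FPKM. The list summed to 8407 to 9140 FPKM in static and 7269 to 8897 FPKM in FSS libraries. Irf4 (326 to 431 static, 88.3 to 123 FSS) and Dcstamp (138 to 166 and 70.0 to 105) were lower under FSS without overlap. Itgax, Ccr7, Cd86 and Zbtb46 were lower in every pair with overlap. The list did not move as one, since H2-Ab1 and H2-Aa were lower under FSS in pair 1 and higher in pairs 2 and 3. Cd74 was higher under FSS in pair 2 alone. The part of these markers in the Schlafen values was not tested.

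Slfn1, Slfn2 and Slfn5 were lower in the FSS libraries, with no overlap between the groups, and Slfn3, Slfn4, Slfn8 and Slfn9 overlapped. This held for 3 of 7 members, beside 20.4% of all genes tested that were lower under FSS without overlap. The same 3 members (42.9%) were lower in all 3 pairs, beside 47.3% of all genes tested. Over all genes the median difference was -0.12 on the log2(FPKM + 1) scale, which moved to 0.02 when libraries were scaled by their median ratio. By mean and without scaling, 5 of the 7 members were lower under FSS (71.4%), beside 65.8% of all genes tested. Their signs stayed the same under median-ratio scaling and under equal totals. Median-ratio scaling brought Slfn8 to -0.05 and Slfn9 to -0.13. In bulk RNA, fewer cells that express a gene and less RNA per cell cannot be told apart.

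**Figure D1:**
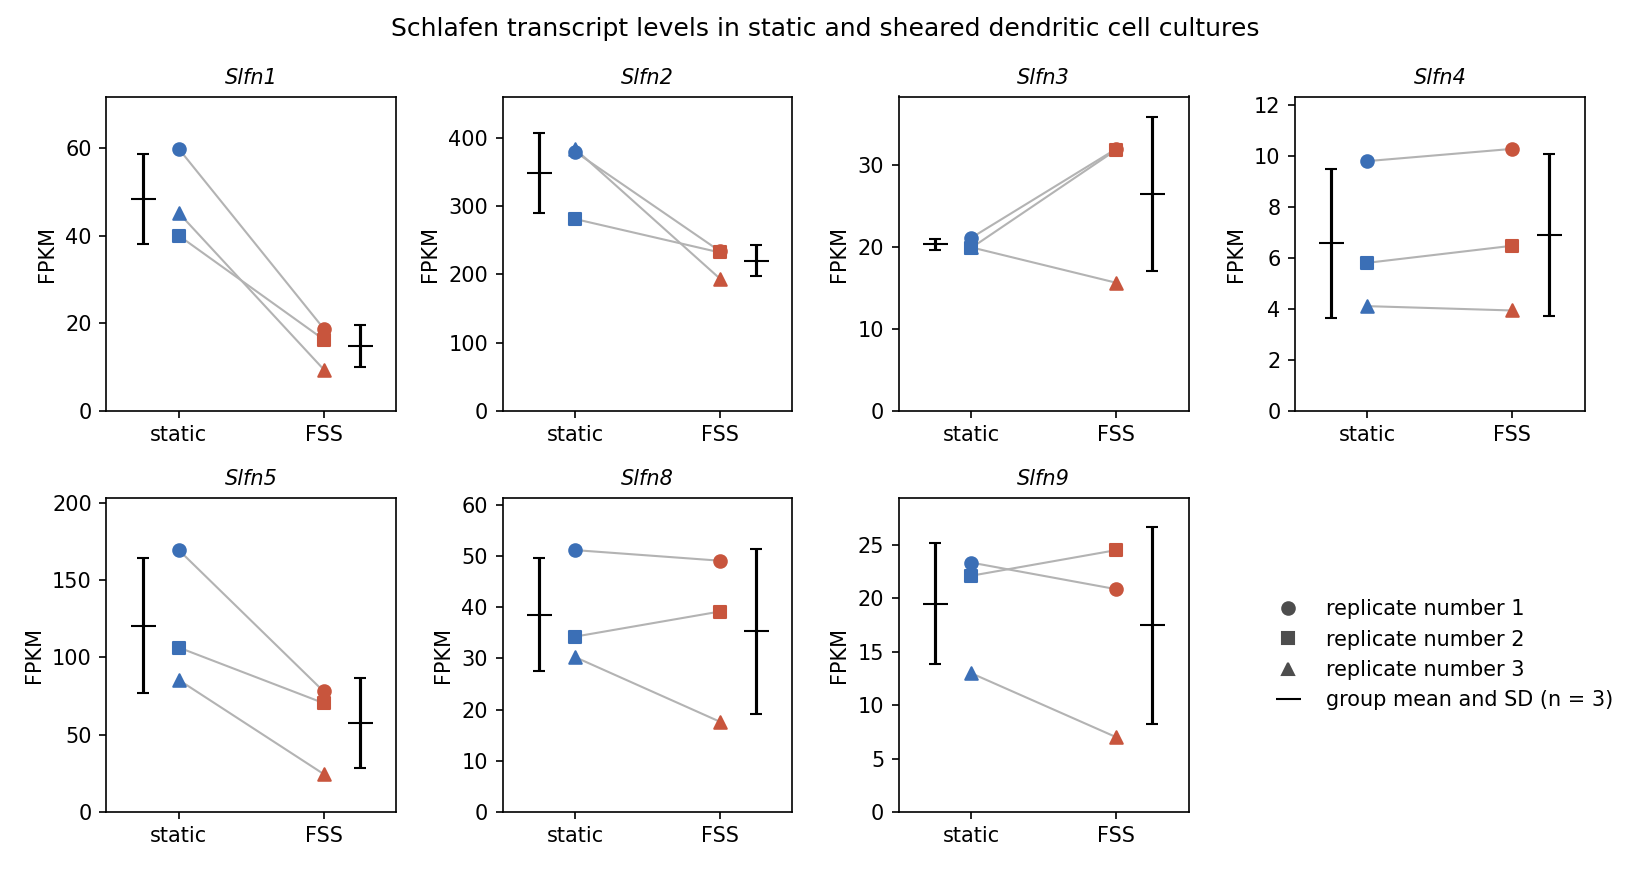
FPKM (vertical axes, from 0) of each Schlafen gene in 3 static (blue) and 3 FSS (red) libraries; symbols mark the replicate number, grey lines join libraries of one number, and black bars give the group mean and SD. The lines of Slfn1, Slfn2 and Slfn5 all fall, while number 3 (triangle) departs from the other lines in Slfn3, Slfn8 and Slfn9.

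Among the short forms, Slfn1, which restrains thymocyte growth when overexpressed, showed the widest gap. It stood at 59.85, 40.01 and 45.19 FPKM in static replicates 1 to 3 and at 18.75, 16.26 and 9.41 FPKM in the FSS replicates. Every static library was more than 2 times as high as any FSS library. The means were 48.4 ± 10.3 and 14.8 ± 4.84 FPKM (SD, n = 3 per group), so that FSS stood at 30.6% of static. The log2(FPKM + 1) difference was -1.67 ± 0.33 (SE from the group SDs), and the pairs gave -1.62, -1.25 and -2.15. Among the 10899 genes tested, 0.0918% had a lower difference than Slfn1. The same share was 0.596% for Slfn5, 5.49% for Slfn2, 30.1% for Slfn9, 38.5% for Slfn8, 71.4% for Slfn4 and 90.2% for Slfn3. The members were proposed with these values in view, so their places are a description. Slfn1 is best known from T cells. The T cell markers Cd3e, Cd3d, Cd3g, Cd4, Cd8a, Cd8b1, Lck, Cd5 and Themis each stayed under 1 FPKM in every library, and their sum was 2.11 to 4.19 FPKM in static and 2.32 to 3.73 FPKM in FSS libraries.

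Slfn2, the quiescence factor, was the most abundant member. Its values were 380, 281 and 384 FPKM in static and 234, 232 and 194 FPKM in FSS libraries. The lowest static library, at 281.43 FPKM, was above the highest FSS library, at 234.04 FPKM. The means were 349 ± 58.3 and 220.0 ± 22.8 FPKM, or 63.1% of static, and the pairs gave log2 differences of -0.70, -0.28 and -0.98. Slfn1 was the lower of the 2 in relation to its static level. The ratio of Slfn2 to Slfn1 within a library was 6.35, 7.03 and 8.51 in static cultures and 12.5, 14.3 and 20.6 under FSS.

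Both intermediate forms overlapped between the groups. Slfn3, studied for its part in T cell subsets and gut epithelial differentiation, was at 21.1, 19.9 and 20.0 FPKM in static libraries, a narrow range. Under FSS it was at 32.0, 31.9 and 15.6 FPKM, above every static library in numbers 1 and 2 and below all of them in number 3. Its pairs gave 0.58, 0.65 and -0.33. Slfn4, a myeloid member that interferon and toll-like receptor ligands induce, was the least abundant, at 9.79, 5.8 and 4.1 FPKM static and 10.3, 6.47 and 3.93 FPKM under FSS. Libraries of one number lay close together, with pair differences of 0.06, 0.14 and -0.05, while numbers differed more than groups. The sum of 8 macrophage and monocyte markers, mostly Lyz2, was also highest in number 1 and lowest in number 3, at 6745, 5057 and 3710 FPKM static and 7570, 5520 and 4056 FPKM under FSS. The list did not move as one, since Cd68 and Fcgr1 were highest in number 3 and Ly6c2 in number 2 of each group. The part of these markers in the Slfn4 values was not tested.

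Among the long forms Slfn5, a nuclear member tied to interferon-regulated transcription, was lower under FSS. It was at 169, 106 and 85.4 FPKM in static and 78.0, 70.4 and 24.5 FPKM in FSS libraries, so that the groups nearly met at 85.41 and 77.95 FPKM. The means were 120 ± 43.7 and 57.6 ± 28.9 FPKM, or 47.8% of static, and the pairs gave -1.11, -0.59 and -1.76. An antisense RNA, Slfn5os, overlaps Slfn5 in RefSeq, and since use of strand is not stated the 2 cannot be separated with certainty.

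Slfn8 and Slfn9, close relatives of equal length, had similar pair differences. Slfn8 was at 51.2, 34.3 and 30.3 FPKM static and 49.1, 39.2 and 17.6 FPKM under FSS, with pair differences of -0.06, 0.19 and -0.75. Slfn9 was at 23.4, 22.1 and 13.0 FPKM static and 20.9, 24.5 and 7.0 FPKM under FSS, with pair differences of -0.16, 0.14 and -0.81. In both genes pair 3 was clearly negative, while pairs 1 and 2 were small and differed in sign. Reads can be divided between these genes only uncertainly: 14.6% of the 50-base words in Slfn8 transcripts and 11.2% in Slfn9 occur in other Schlafen transcripts, mostly of Slfn10-ps. The share was 8.15% for Slfn4, 7.39% for Slfn3, 4.27% for Slfn2, 0.606% for Slfn1 and 0.0% for Slfn5.

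**Figure D2:**
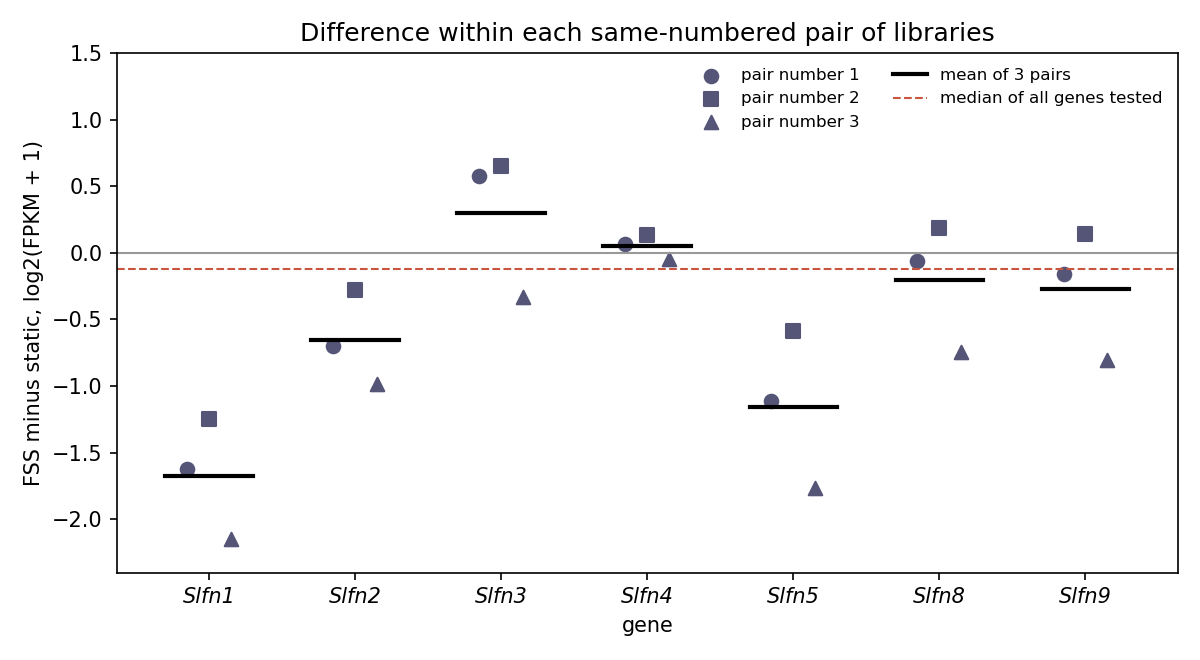
FSS minus static on the log2(FPKM + 1) scale (vertical axis) for each gene (horizontal axis) in the 3 same-numbered pairs, with the mean of the pairs (black) and the median of all 10899 genes tested (dashed). Slfn1, Slfn2 and Slfn5 lie below 0 in every pair, as do 47.3% of all genes tested. Pair 3 is the lowest of the 3 in each of the 7 genes.

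Pair 3 gave the lowest of the 3 differences in all 7 members, beside 63.3% of all genes tested, and FSS replicate 3 was the lowest of the 6 libraries in all 7, beside 42.4%. The number 3 library differed from the mean of numbers 1 and 2 by a median over the members of -0.99 in the FSS group and -0.46 in the static group on the log2 scale, beside -0.21 and -0.04 over all genes. With both libraries numbered 3 left out, an alternative chosen after seeing the data, the differences were -1.44 for Slfn1, -0.49 for Slfn2 and -0.85 for Slfn5. The same setting gave 0.62 for Slfn3, 0.10 for Slfn4, 0.06 for Slfn8 and -0.01 for Slfn9. Slfn8 changed sign and Slfn9 came to nearly 0. The 3 lower members kept their sign, which was fixed in advance because their groups did not overlap. The lower members included 2 of the 4 with CCAGGAAGT in the promoter (Slfn1 and Slfn2) and 1 of the 3 with GAAANNGAA (Slfn5), so the promoter kinds and the expression pattern did not coincide.

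Ratios of 2 members within a library do not depend on how libraries are scaled. The ratio of Slfn1 to Slfn3 was 2.83, 2.01 and 2.26 in static libraries and 0.586, 0.51 and 0.602 under FSS, so Slfn1 was the higher of the pair in every static library and the lower in every FSS library. The ratio of Slfn5 to Slfn8 was 3.31, 3.1 and 2.82 in static and 1.59, 1.8 and 1.39 in FSS libraries. By contrast the ratio of Slfn8 to Slfn9 differed more between replicate numbers than between groups, at 2.19, 1.55 and 2.33 static and 2.35, 1.6 and 2.52 under FSS. It was slightly higher under FSS in every pair. These ratios were chosen after their values were seen and have no test.

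**Figure D3:**
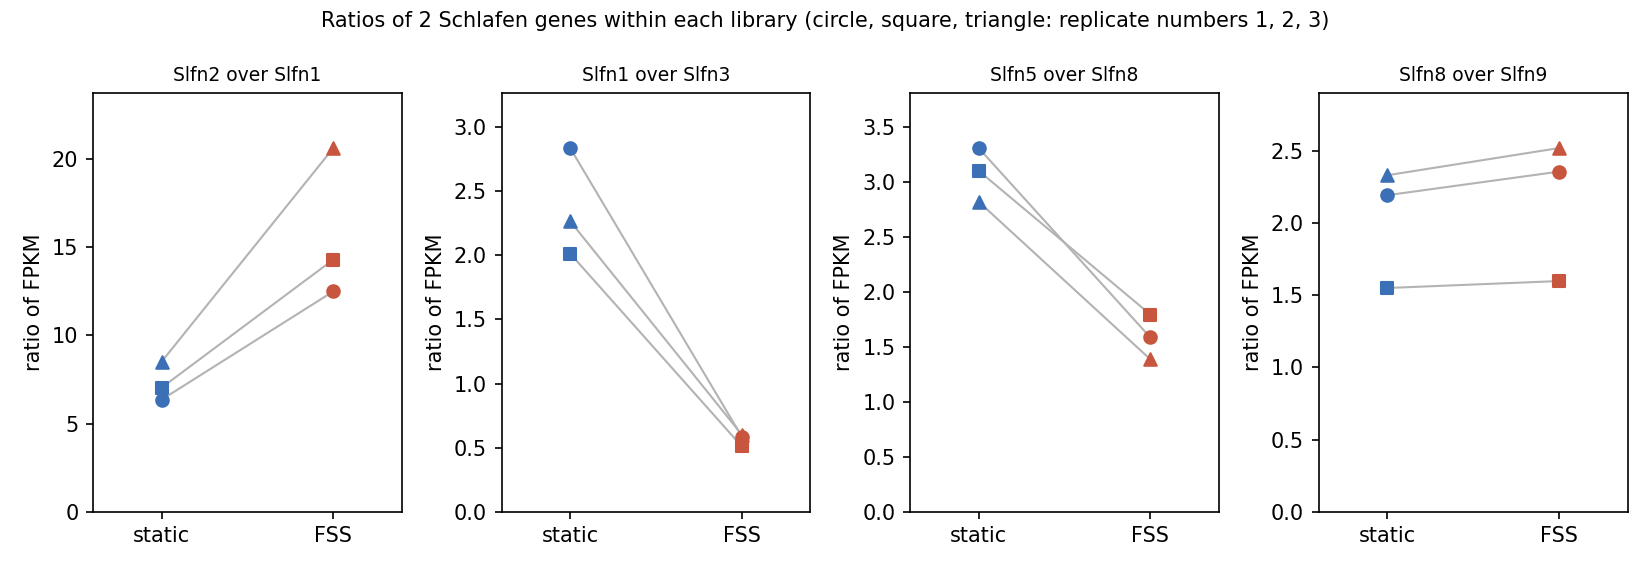
Ratio of the FPKM of 2 Schlafen genes (vertical axes, from 0) within each static (blue) and FSS (red) library, joined by replicate number. The ratios Slfn2 over Slfn1, Slfn1 over Slfn3 and Slfn5 over Slfn8 separate the groups without overlap, whereas Slfn8 over Slfn9 overlaps, from 1.55 to 2.33 static and from 1.6 to 2.52 under FSS.

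The order of the levels, which FPKM allows across genes, differed between the groups mainly in the place of Slfn1. By static means it ran Slfn2, Slfn5, Slfn1, Slfn8, Slfn3, Slfn9, Slfn4. Each neighbour kept that order in all 3 static libraries except Slfn3 over Slfn9, which held in 1 of 3 and so cannot be ranked. By FSS means Slfn1 came in place 6, after Slfn9, with the others in the static order, and all neighbours kept the order in all 3 libraries except Slfn9 over Slfn1 (2 of 3). The sum of the 7 members was 602 ± 104 FPKM static and 379 ± 93.1 FPKM under FSS, lower in 3 of 3 pairs. Slfn2 made up 58.1 ± 6.9% of it in static and 59.8 ± 10.0% in FSS libraries. The share of Slfn1 was 7.99 ± 0.33% and 3.85 ± 0.39%, that of Slfn3 3.43 ± 0.47% and 6.85 ± 0.97%, and that of Slfn4 1.07 ± 0.34% and 1.77 ± 0.48%, none with overlap. A share also rises when the sum falls. In pair 3 the share of Slfn3 was higher under FSS though its level was lower.

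**Figure D4:**
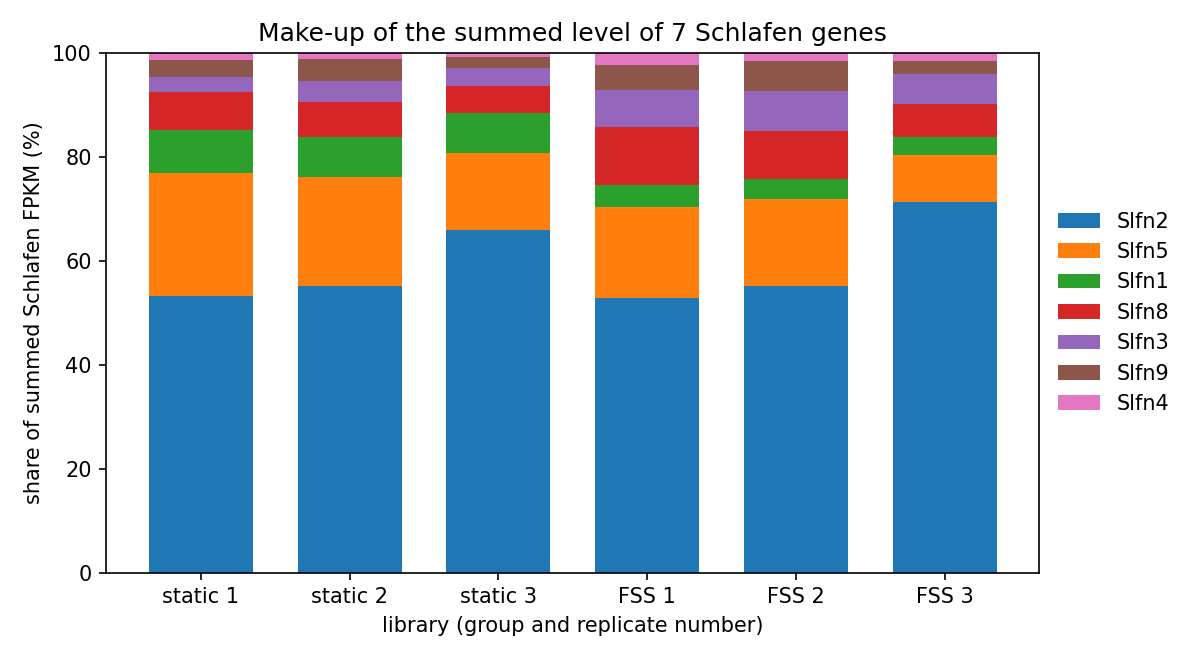
Share of each gene in the summed FPKM of the 7 Schlafen genes (vertical axis, percent) in each library (horizontal axis). Slfn2 holds more than 50% in all 6 libraries, and the Slfn1 band (green) is narrower in the 3 FSS libraries, at 3.46 to 4.23%, than in the 3 static ones, at 7.76 to 8.37%.

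Other genes of Schlafen biology were tested in the fit across all genes (limma on log2(FPKM + 1), Benjamini-Hochberg adjusted p under 0.05), which called 1.72% of all genes, 0.853% higher and 0.862% lower under FSS. With the replicate number as a block it called 32.9%, 7.73% higher and 25.1% lower. When libraries were in addition scaled by their median ratio, 19.2% were higher and 16.8% lower, so the balance of directions with the block depends on scaling. The list counts below stand beside these shares.

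Of 20 tested genes of interferon and JAK-STAT signalling, which drives Schlafen transcription, 1 rose, 1 fell and 18 did not pass. With the replicate block 5 rose and 5 fell (beside 7.73% and 25.1% of all genes), and with the block and scaling 6 and 5 (beside 19.2% and 16.8%). Ifnb1, which encodes interferon beta, was at 0.21, 0.09 and 0.48 FPKM in static and 2.59, 2.03 and 2.45 FPKM in FSS libraries. It rose by 1.42 ± 0.17 on the log2(FPKM + 1) scale, which understates the change of low genes (SE; limma adjusted p = 0.0156), and it passed the filter on low values only through the FSS libraries. Socs1, the feedback inhibitor of JAK kinases, fell from 175 ± 51.8 to 50.3 ± 11.4 FPKM (limma adjusted p = 0.0287).

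Interferon-stimulated genes, a class that many Schlafen genes belong to, gave few calls. Of 37 tested, 1 fell, none rose and 36 did not pass. Under an unadjusted limma p of 0.05 were 7 of the 37, beside 1969 of all 10899 genes. With the replicate block 2 rose and 12 fell, a total of 14 of 37 beside 32.9% of all genes, and scaling in addition gave 4 and 9. The gene was Ifi35, which binds the factor NMI, at 45.4, 40.4 and 46.5 FPKM in static and 20.6, 24.5 and 16.9 FPKM in FSS libraries (log2 difference -1.07 ± 0.18, SE; limma adjusted p = 0.0408), a call lost when library totals were made equal. The list median was -0.18, beside -0.12 for all genes and -0.27 for the 7 Schlafen genes. Single values ran from -1.47 for Dhx58, a cytosolic RNA sensor, to 1.67 for the chemokine gene Cxcl10, both named after their values were seen. In 32 of the 37, FSS replicate 3 was the lowest library (86.5%, beside 42.4% of all genes), as in the 7 Schlafen genes. Without both libraries numbered 3, 1 of the 37 was called higher and 3 lower, beside 371 higher and 356 lower of 10651 genes in that fit.

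**Figure D5:**
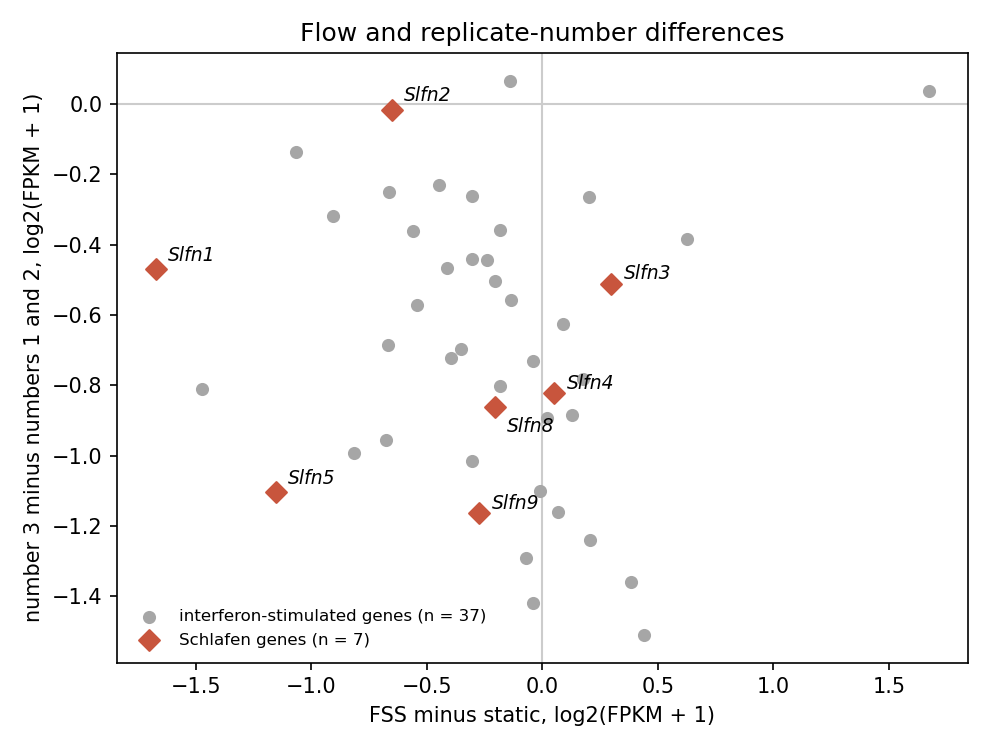
Mean FSS minus static difference (horizontal axis) against the mean of number 3 minus the mean of numbers 1 and 2 over both groups (vertical axis), both on the log2(FPKM + 1) scale, for 37 interferon-stimulated genes (grey) and the 7 Schlafen genes (red). All 7 Schlafen genes lie below 0 on the vertical axis, Slfn2 nearest to it, and Slfn1 lies farthest left of all points shown.

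Of 16 genes tied to quiescence, a state in which Slfn2 has a known part, none passed. At an unadjusted limma p under 0.05 stood 3 of the 16, beside 1969 of all 10899 genes. With the block 4 rose and 2 fell, 6 of 16 beside 32.9% of all genes, and scaling in addition gave 5 and 1. Klf2, a factor that keeps lymphocytes quiescent, was at 5.34 ± 2.64 and 10.98 ± 2.43 FPKM and rose with the replicate block alone (limma adjusted p = 0.164 without it and 0.00444 with it). Cdkn1a, the cell cycle inhibitor p21, was at 435 ± 108 and 262 ± 76.1 FPKM and fell with the block alone (0.193 and 0.00357). Of 24 proliferation genes, 1 fell and none rose. It was Myc, at 36.9, 43.4 and 37.1 FPKM in static and 9.48, 16.1 and 11.5 FPKM in FSS libraries (limma adjusted p = 0.0203). With the block 1 rose and 7 fell (beside 7.73% and 25.1% of all genes), and scaling in addition gave 7 and 4 (beside 19.2% and 16.8%), a turn in balance that all genes share.

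Of 13 genes of transfer RNA cleavage and ribosome stall sensing, 1 fell and none rose. With the block 3 fell and none rose, beside 25.1% of all genes lower, and scaling in addition gave 2 higher and 3 lower. The gene called without the block was Elac2, which trims the 3′ end of transfer RNA precursors, from 10.4 ± 1.16 to 5.2 ± 0.33 FPKM (limma adjusted p = 0.0423). The call was lost with median-ratio scaling and with equal totals.

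Of the 20 protein-coding genes next to the cluster, 10 on each side, 11 could be tested. Nle1, a ribosome assembly factor, fell, from 6.28 ± 0.33 to 3.1 ± 0.47 FPKM (limma adjusted p = 0.0469), a call lost with a pseudocount of 0.1 and under both scalings. None rose and 10 did not pass. With the block 3 fell and none rose, beside 25.1% of all genes lower, and scaling in addition gave 4 higher and 3 lower. Nearest to Slfn5, Unc45b was near 0 (at most 0.07 FPKM), and beyond Nle1 stood Fndc8 (at most 0.36), Rad51d (7.25 to 9.55) and Rffl (18.9 to 32.4). On the other side Ap2b1 was at 43.6 to 58.7 FPKM, while Rasl10b, Gas2l2 and 1700020L24Rik stayed under 0.5. Each of Ifnb1, Socs1, Ifi35, Myc, Elac2 and Nle1 passed in 1 of the fits that left out 1 library, Ifnb1 without static replicate 3 and the others without FSS replicate 3. Ifnb1 could be tested in only 3 of those fits.

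The genes most like each member over the 6 libraries were taken by Pearson r of log2(FPKM + 1) among 8656 genes, as a description. The libraries share their group and replicate number, so high values are common: 13 genes exceeded 0.99 for Slfn1, and 30 for Slfn9. For Slfn1 they were Ccnj (r = 0.997), Isg20 (0.996), an interferon-induced exonuclease, and Ddx3x (0.996), an RNA helicase. Isg20 was at 10.3, 7.71 and 8.51 FPKM in static and 5.27, 4.67 and 3.0 FPKM in FSS libraries. For Slfn2 they were Pcyt1a (0.99), an enzyme of phosphatidylcholine synthesis, Nbas (0.982) and Slc41a2 (0.981). Among the genes most like Slfn5 were Kremen1 and Ccnyl1 (both 0.997), lower under FSS in all 3 pairs. Slfn3 was nearest to Zfyve26 (0.993), Pitpnm1 and Mau2 (both 0.985), which share its low value in FSS replicate 3. Such shared patterns follow from the choice by likeness and are no separate observation. Slfn4 was nearest to Ctss, Selenop (both 0.996) and Fn1 (0.995), which encode a lysosomal protease, a selenium carrier and fibronectin. Slfn8 was nearest to Stxbp3 (0.993), Mndal and Src (both 0.992), and Slfn9 to Ankle2, Usp24 (both 0.999) and Zfp62 (0.998).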

How the data were processed

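RNA of 6 libraries, 3 static and 3 FSS, was grouped by the submitters' sample titles. HISAT and Bowtie2 are named in the submitters' processing notes, without a role. Which quantifier, genome build and annotation were used, and whether strand was, was not given in the sources used here, so gene coordinates are not printed and promoter coordinates are RefSeq's. The authors deposited expression values without a stated unit for 22899 genes, blank in all libraries for 4828, with the same values in the series table and the 6 sample tables. They were taken as FPKM from the deposited values: value times transcript length summed to 0.551 to 0.608 (median lengths) or 1.14 to 1.28 (longest) of the total that FPKM gives by construction. Whole reads were not recovered. The best of many step sizes tried placed 28.4% to 33.0% of low values within 0.1 of a whole read, where evenly spread values at 1 step would give 20%. This check is weak, since effective lengths are unknown, and its range of values was widened after a narrower one left too few. Counting error is therefore unknown.

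The test was limma 3.58.1 in R 4.3.3 with a variance trend on log2(FPKM + 1), over the 10899 genes that reached 1 FPKM in 3 or more libraries. It was two-sided, with p-values adjusted by Benjamini and Hochberg's method across those genes and a threshold of 0.05. The fit was also run on simulated data. The outcome is not reported here, so that run says nothing about how many true differences the fit finds. The main fit had no replicate block, and adjusted p-values come from it unless the block is named. Deviations of same-numbered libraries correlated at 0.79, 0.66 and 0.87. Values were therefore also given pair by pair, and the block was fitted as an alternative. That replicate numbers pair the libraries is a reading from these data and not from the labels. The members and lists were chosen with earlier results of these data known. Named genes are the members, other Schlafen rows, up to 5 neighbours on each side of the cluster, from each list up to 4 called genes with the smallest adjusted p (or 2 if no gene was called), and 3 genes per member by likeness, among genes with a mean of at least 2 on the log2 scale; some genes this rule names are not reported here. The settings varied were the pseudocount (0.1), the filter (none), the threshold (0.01), the replicate block, 2 scalings and the omission of each library.

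Summed markers of other cell types were, over static and over FSS libraries, 352 to 554 and 334 to 474 FPKM (neutrophil), 2.72 to 6.25 and 2.24 to 5.06 (B cell), 3.24 to 11.2 and 1.99 to 7.44 (NK cell), 4.13 to 6.56 and 4.41 to 6.91 (mast cell and basophil), and 11.6 to 15.2 and 13.2 to 19.2 (erythroid and megakaryocyte).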

Additional observations from a re-analysis of the deposited data

How the results depend on the processing

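Over 13 settings Slfn1, Slfn2 and Slfn5 stayed lower and Slfn3 higher under FSS, with log2 differences of -1.86 to -1.40, -0.80 to -0.49, -1.45 to -0.63 and 0.13 to 0.63. The groups of Slfn1, Slfn2 and Slfn5 did not overlap, so only settings with scaling could have changed their sign. Dropping the filter or adding the replicate block cannot alter a member's difference in this design. The block with median-ratio scaling likewise repeats that scaling alone. These settings were therefore no check on any member, Slfn3 included. For Slfn1, Slfn2 and Slfn5, the pseudocount and the omission of libraries speak to the size of the difference alone. Slfn4 changed sign in 2 settings, Slfn8 in 3 and Slfn9 in 1. The members' median (-0.27) ran from -0.59 to 0.22 with 1 library left out, reversing to 0.22 without FSS replicate 3, and was -0.01 without both libraries numbered 3.

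Of all genes tested, 187 were called. The number was 3581 with the replicate block, 3921 with the block and median-ratio scaling, 113 with equal totals, 5 at a threshold of 0.01, 727 without both libraries numbered 3 and 0 without the filter (2692 at an unadjusted limma p under 0.05). It ran from 3 to 415 with 1 library left out, the highest without FSS replicate 3. Median-ratio scaling gave 158 higher and 71 lower, in place of 93 and 94.

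The lists gave 2 calls (interferon and JAK-STAT), 1 (interferon-stimulated), 0 (quiescence), 1 (proliferation), 1 (transfer RNA) and 1 (neighbours). In that order the replicate block gave 10, 14, 6, 8, 3 and 3, and the block with median-ratio scaling 11, 13, 6, 11, 5 and 7. Without the filter, and at a threshold of 0.01, every list gave 0 calls. Equal totals gave 0 for the interferon-stimulated, transfer RNA and neighbour lists, median-ratio scaling 0 for the transfer RNA and neighbour lists, and a pseudocount of 0.1 gave 0 for the neighbours. Without both libraries numbered 3, the interferon-stimulated list gave 4, quiescence 1 and the neighbours 2. With 1 library left out the counts ran from 0 to 2 for interferon-stimulated genes and from 0 to 1 for the interferon and JAK-STAT, proliferation, transfer RNA and neighbour lists. Beyond what the settings themselves change (fewer genes or libraries), the cause was not tested. Depth is unknown, so what it limits cannot be stated.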

Other observations

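The table holds 3 further Schlafen rows. Slfn10-ps, annotated as a pseudogene and similar in sequence to Slfn8 and Slfn9, was at 12.1, 11.1 and 6.02 FPKM in static and 13.9, 14.0 and 5.33 FPKM in FSS libraries, low in both libraries numbered 3 like those 2 genes. Slfn14, a long form known from platelets and red cell precursors, was at 1.68, 1.2 and 3.26 FPKM in static and 0.71, 0.9 and 1.6 FPKM in FSS libraries, lower under FSS in 3 of 3 pairs, with groups that overlapped. It was highest in number 3 of each group, unlike the 7 members. Slfnl1, a Schlafen-like gene outside the cluster, stayed at or under 0.23 FPKM.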
